A study of Rattus norvegicus with 23 samples.

Results

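RT1-Bb, Ldhb and Adamts13 are 3 genes whose signal split blood mononuclear cells from 23 rat pups into a low and a high set of arrays, with a wide empty interval between them. They were chosen by that split in log2(Cy5/Cy3), so the split itself is given below as a description with no test. Every probe of the 3 genes, out of 15347 named genes on the array, was taken by the gene name in the scanner files, which gave 4 of 41012 probes: 2 for RT1-Bb, 1 for Ldhb and 1 for Adamts13, the last listed as Adamts13_predicted. The questions were whether the probes of a gene agreed, whether the splits fell on the same pups, and whether they followed the diet of the dam.

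Peripheral blood mononuclear cells, the lymphocytes and monocytes recovered from blood on a density gradient, came from male and female Wistar pups killed at 21 days of age while feeding freely. Control pups had dams on standard chow fed freely, and pups of the calorie-restricted (CR) group had dams whose calories were cut by 20% from the first day after delivery to weaning. The males numbered 6 controls and 5 CR pups and the females 6 of each, and every pup had 1 array. The Cy5 channel held 1 pup and the Cy3 channel an equimolar pool of all samples, so every value is a level relative to that pool, as log2(Cy5/Cy3). The pups came from 16 litters, 11 from control dams and 5 from CR dams, and the labels do not tie a pup to its litter. The 11 CR pups therefore shared at most 5 dams, and p-values that treat pups as independent may be too small.

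RT1 is the major histocompatibility complex of the rat, a block of closely linked genes that is among the most polymorphic in mammals, and Wistar rats are an outbred stock. RT1-Bb encodes the beta chain of the RT1-B class II molecule, which pairs with the RT1-Ba alpha chain and presents peptides to helper T cells on B cells, monocytes and dendritic cells. Ldhb encodes the B subunit of lactate dehydrogenase, which interconverts lactate and pyruvate as tetramers with the product of Ldha. Adamts13 encodes the plasma protease that cleaves von Willebrand factor and is made mainly in the stellate cells of the liver, with smaller amounts in endothelium.

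The class II genes share promoter elements, among them the Y box, an inverted CCAAT element bound by the factor NF-Y. The RefSeq promoter of RT1-Bb (assembly GRCr8, chr20:4604153-4604252, minus strand, from 134 to 35 bases before the start of the gene) is shown because the genes most like RT1-Bb came from its own locus, with the Y box letters in capitals.
RT1-Bb: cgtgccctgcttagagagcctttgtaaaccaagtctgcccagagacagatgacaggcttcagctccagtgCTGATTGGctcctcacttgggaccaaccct
The capitals, searched as CTGATTGG on both strands (CCAATCAG on the other) in the 250 bases before each start, begin 64 bases before the start of RT1-Bb. The same letters occurred in 945 of 27457 promoters (3.44%) and in 8 of the 16 promoters found for a list of class II and antigen-processing genes, including RT1-Ba, RT1-Da and RT1-Db1 but not RT1-DOb or Cd74. The promoters of Ldhb and Adamts13 did not hold these letters. A match is a match of letters only.

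Across the arrays, 20603 to 24076 probes were well above background in Cy5 (median 22487) by the scanner software's flag, and the median Cy5 intensity lay between 55.6 and 65.76 scanner units. Intensities given in scanner units or as log2 Cy5 are mean spot signals with no background subtracted. A probe was kept where at least 50% of a group's arrays carried that flag, which left 23693 probes, and all 4 probes of the 3 genes were among them. Of the markers of mononuclear cells, 7 of 8 for T cells were kept with a mean log2 Cy5 of 12.05, 7 of 9 for B cells with 9.09, 5 of 5 for natural killer cells with 8.75 and 6 of 6 for monocytes with 10.22. Markers of other cells were measured as well: 5 of 6 neutrophil markers were kept with a mean log2 Cy5 of 8.75 and 3 of 4 liver markers with 9.85. These means come from different probes, whose levels cannot be set against each other. Red cell markers (5 of 6 kept, mean 12.74) and platelet markers (4 of 5 kept, mean 10.95) ranged most widely between pups, from -2.41 to 2.16 for red cell and -1.94 to 2.09 for platelet genes on the log2 ratio scale.

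The first RT1-Bb probe, A_44_P552452, lies on the minus strand of chromosome 20 at chr20:4730533-4730583 on rn4, the build of the array design, where its alignment spans 51 bases. Among kept probes with at least 3 arrays on each side of their widest gap, it had the second widest. On 6 arrays its log2 ratio lay between -4.58 and -3.41, on 17 arrays between -0.45 and 1.93, and no array fell in the 2.96 log2 units between. The low arrays were control male replicate 6 (-4.48), CR male replicates 1 (-4.49) and 5 (-4.57), and CR female replicates 2 (-3.49), 3 (-4.58) and 5 (-3.41). No control female was low.

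The 6 values of control females ran from -0.08 to 1.93 with a median of 0.23. Those of control males ran from -4.48 to 1.42 with a median of 0.70. The 5 CR males lay at -4.49, 1.21, -0.24, -0.45 and -4.57. CR females ran from -4.58 to 1.01 with a median of -1.50, which falls inside the empty interval because 3 of the 6 lay on each side. The range of each group other than the control females spanned both sets of arrays, so the diet groups overlapped.

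The interval came from the pup's channel. Cy5 was 124 to 190 scanner units on the 6 low arrays and 3074 to 23154 on the others, a 187-fold range over all arrays, while the pool in Cy3 stayed between 1063 and 2217, a 2.09-fold range. Cy5 was flagged well above background on all 23 arrays, the low ones included. Low and high arrays were present together on 4 of the 6 slides.

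The second RT1-Bb probe did not split. A_44_P500803, at chr20:4732962-4733021 on the same strand and 2429 bases from the first, ranged only from -0.48 to 0.59, with a widest gap of 0.19 log2 units. On the 6 arrays low for the first probe it lay between -0.32 and 0.59. Its Cy5 was 1159 to 3471 scanner units over all arrays. Across the 23 arrays, with each value centred on the mean of its group, the probes had a Pearson r of -0.31, so the 2 probes of this gene did not rank the pups alike. The array assigns both to the same transcript, NM_001004084.

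**Figure D1:**
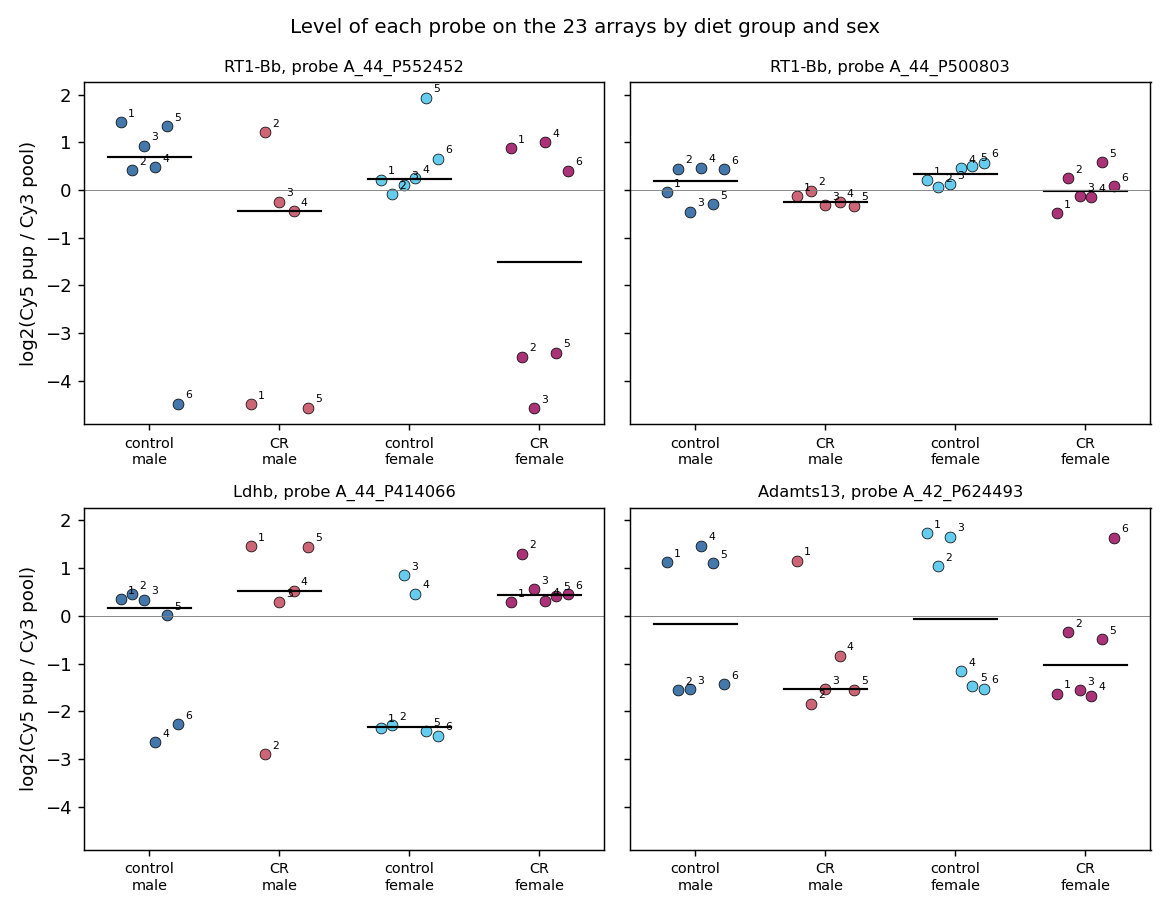
Each point is 1 array (1 pup, numbered by replicate), the vertical axis is log2(Cy5 pup / Cy3 pool), and black bars are group medians. RT1-Bb probe A_44_P552452 has 6 arrays between -4.58 and -3.41 and none from there to -0.45, whereas RT1-Bb probe A_44_P500803 stays between -0.48 and 0.59.

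**Figure D2:**
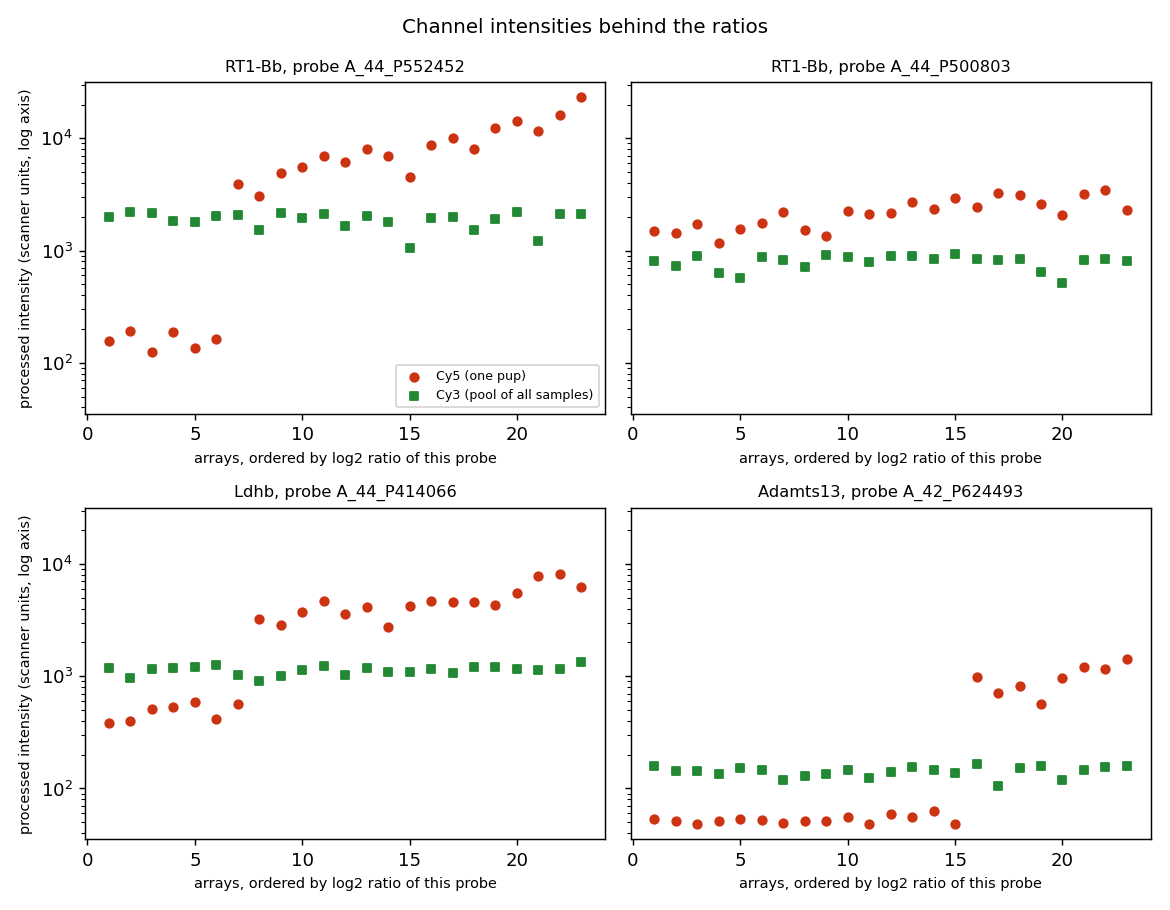
Mean spot signals of Cy5 (circles, 1 pup) and Cy3 (squares, the pool) in scanner units on a log axis, with no background subtracted. The axis label calls them processed. The 23 arrays are ordered by the log2 ratio of the probe shown. The step lies in Cy5 for RT1-Bb probe A_44_P552452, Ldhb and Adamts13, while Cy3 varied by 2.09-fold, 1.47-fold and 1.59-fold.

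Other RT1 probes followed the split RT1-Bb probe closely. The 5 named genes most like it over 23 arrays, by absolute r of group-centred values, were RT1-CE3 (r = 0.95), RT1-A2 (0.93), RT1-CE16 (0.93), RT1-DOb (0.92) and RT1-CE2 (0.91). RT1-CE3, RT1-CE16, RT1-CE2 and RT1-A2 are class I genes, and RT1-DOb encodes the beta chain of the class II modulator RT1-DO. Their own ranges were smaller, 2.13 log2 units for RT1-CE3 and 1.91 for RT1-DOb against 6.51 for RT1-Bb. These genes are probes on shared arrays from one linked locus, and class I genes are closely similar copies, so a probe of one may take signal from another. Of the cell type markers, the natural killer mean had an r of -0.51 with the split RT1-Bb probe and the B cell mean 0.48. The natural killer mean lay between 0.07 and 0.18 on the 6 low arrays and between -0.37 and 0.21 on the other 17, and the B cell mean between -0.59 and 0.32 and between -0.28 and 0.79. The part of these cells in the RT1-Bb levels was not tested across arrays.

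Likeness was also read within each side of the interval, without centring on group means. Among the 17 arrays above the interval, RT1-DOb had an r of 0.90 with RT1-Bb, and among the 6 below it an r of 0.92. For RT1-A2 the values were 0.76 and 0.43, and for RT1-CE3 0.74 and 0.79. RT1-A2 lay between -1.06 and -0.36 on the 6 low RT1-Bb arrays and between 0.01 and 0.86 on the other 17, so its order kept the same 2 sets apart. The 6 low arrays held a further RT1-Bb gap of 0.98 log2 units, from -4.48 to -3.49, and the other 17 fell into the further sets described below. The part of these steps in the r within a side was not tested.

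Within 500 kb of the split RT1-Bb probe, 43 kept probes with a gene name covered 36 genes, with r from -0.74 to 0.93. Of these probes, 11 had an absolute r of at least 0.5, a level reached by 2.22% of all kept probes. The strongest were RT1-A2, RT1-DOb at a distance of 24936 bases, and Psmb8 (r = -0.74), an immunoproteasome subunit encoded at 57447 bases. A probe without a gene name, AI228153, aligned between the 2 RT1-Bb probes, 212 bases from the first, and had an r of 0.85 over a range of 1.27.

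A pair of class II probes without a gene symbol ran opposite to the split RT1-Bb probe but with the unsplit one. AJ003232 (probe A_43_P16181, annotated as the RT1-D beta1 chain of haplotype k, 53679 bases away) had an empty interval of 2.19 log2 units with 7 arrays below, and NP516919 (probe A_44_P158837, annotated as an MHC class II antigen, 3970 bases away) one of 1.89 with 7 below. Both were picked out after their values were seen. Their r was -0.72 for both with A_44_P552452, and 0.55 (AJ003232) and 0.60 (NP516919) with A_44_P500803. They put 23 of 23 arrays on the same side as each other, and no array was below the interval both for them and for A_44_P552452.

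Together these probes sorted the pups into 3 sets. The 7 arrays low for AJ003232 were the 7 with the highest RT1-Bb values, from 0.88 to 1.93. The 10 arrays low for neither had RT1-Bb values from -0.45 to 0.66, 0.23 log2 units below the first set at the nearest point. On the 6 arrays low for RT1-Bb, AJ003232 lay between 0.14 and 1.02, overlapping its range of -0.19 to 0.69 on the 10 arrays low for neither.

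Counted by group, control males fell 1 in the RT1-Bb-low set, 2 in the set low for neither and 3 in the AJ003232-low set. Control females fell 0, 5 and 1, CR males 2, 2 and 1, and CR females 3, 1 and 2. Each group but the control females had a pup in every set. Probe sequences were not used here, and the part that sequence differences between pups under the probes may have in these levels was not tested.

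**Figure D3:**
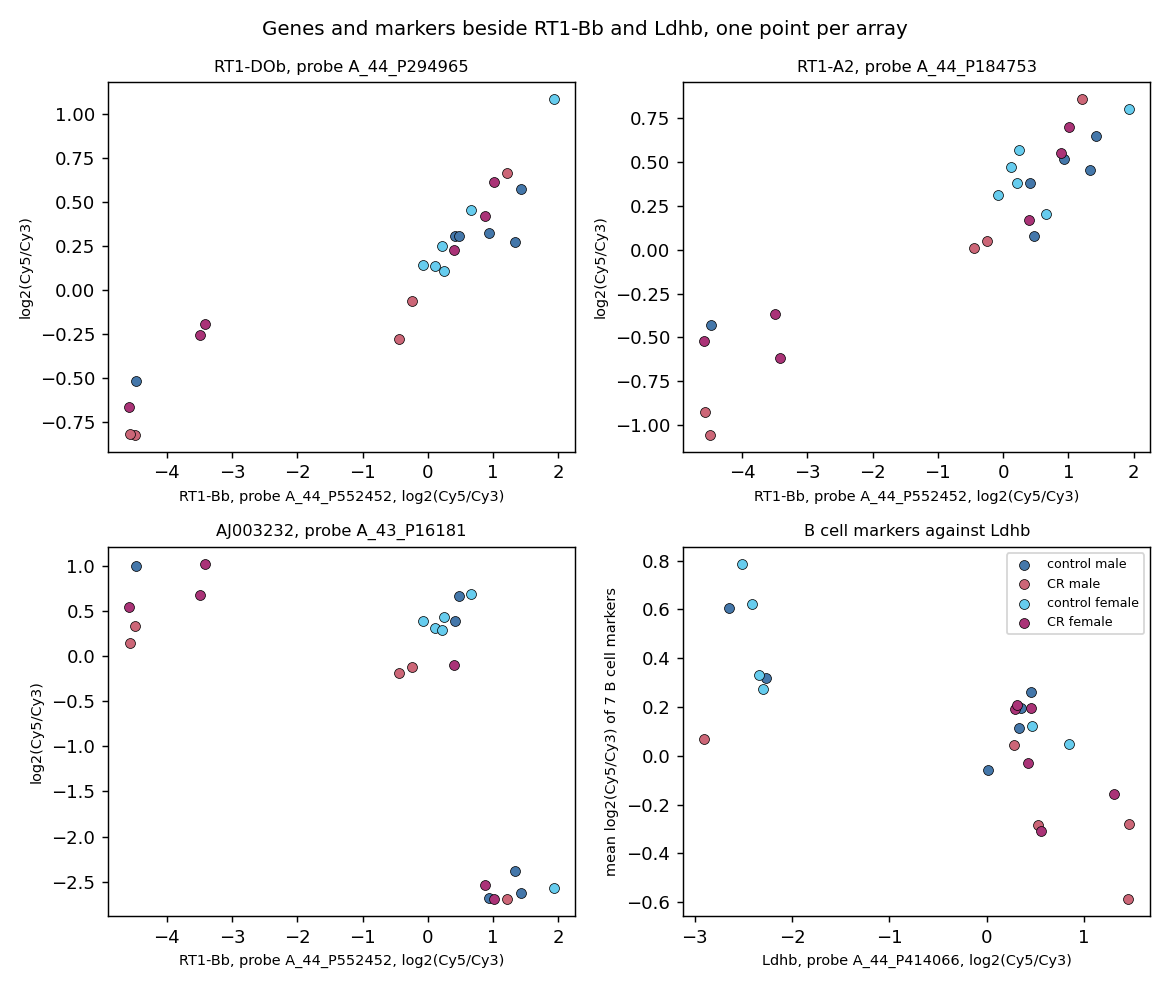
One point per array, coloured by group, on log2(Cy5/Cy3) axes. RT1-DOb and RT1-A2 rise with RT1-Bb, AJ003232 is low on the 7 arrays with the highest RT1-Bb, and the mean of 7 B cell markers lies between 0.07 and 0.79 on the 7 low Ldhb arrays and between -0.59 and 0.26 on the 16 high ones.

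The Ldhb probe, A_44_P414066 (transcript NM_012595, minus strand, chr4:180061921-180063949 on rn4, an alignment that spans 2029 bases where most probes span 60), came next in width. The log2 ratio lay between -2.90 and -2.27 on 7 arrays and between 0.01 and 1.46 on 16, with 2.28 log2 units empty between them. The low arrays were control female replicates 1, 2, 5 and 6, control male replicates 4 and 6, and CR male replicate 2. No CR female was low.

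Control females ran from -2.52 to 0.85 with a median of -2.32, and CR females from 0.29 to 1.30 with a median of 0.44. Control males ran from -2.65 to 0.46 with a median of 0.17. The 5 CR males lay at 1.46, -2.90, 0.28, 0.53 and 1.45. The groups overlapped in both sexes, since 2 control females were among the high arrays.

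Cy5 for Ldhb was 383 to 594 scanner units on the low arrays and 2776 to 8124 on the high ones, against 909 to 1337 for the pool, and it was well above background on all 23. Low and high arrays shared 5 of the 6 slides. A smaller empty step of 0.46 log2 units, from 0.85 to 1.30, set 3 arrays above the rest of the high set: CR male replicates 1 and 5 and CR female replicate 2. All 3 belonged to the arrays low for RT1-Bb.

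The named genes most like Ldhb were Zfx (r = -0.83), Cd79b (-0.75), Stx7 (-0.74), Plcg2 (-0.73) and Reps1 (0.73). Cd79b is a signalling chain of the B cell receptor and Plcg2 the phospholipase that acts below it. The r of Zfx fell to -0.50 without centring on group means, and its whole range was 0.45 log2 units. Among the 16 high arrays Cd79b kept an r of -0.55 and Plcg2 of -0.58, and among the 7 low arrays they had 0.08 and -0.03. Reps1 had 0.39 and -0.01.

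B cell markers ran opposite to Ldhb over all arrays. The mean log2 ratio of the 7 kept markers had an r of -0.71 with Ldhb after centring on groups, and of -0.67 within the 16 high arrays and 0.17 within the 7 low arrays without centring. The marker mean ran from -0.06 to 0.79 in the 12 control pups and from -0.59 to 0.21 in the 11 CR pups. In a sample of mixed cells, fewer cells of a type and less RNA per cell cannot be told apart. T cell markers had an r of 0.26 with Ldhb, and liver markers (3 of 4 kept) of 0.56. Without centring, the r of the liver markers was 0.33 over all arrays, -0.05 within the 16 high arrays and 0.17 within the 7 low ones.

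The few kept neighbours of Ldhb did not move with it as the RT1 genes did with RT1-Bb. Within 500 kb, 6 kept probes of 4 named genes had r between -0.53 (Sox5) and 0.27 (Golt1b), against 43 probes of 36 genes around RT1-Bb. The nearest was a Golt1b probe 98395 bases away, so no closer neighbour of Ldhb was read. Only Sox5 reached an absolute r of 0.5, which 4.79% of all kept probes did.

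The Adamts13 probe, A_42_P624493 (transcript ENSRNOT00000007640, plus strand, chr3:5907874-5907933 on rn4), was the dimmest of the 4. On 15 arrays the log2 ratio lay between -1.84 and -0.35 and on 8 between 1.04 and 1.73, with 1.38 log2 units empty between them. Cy5 was 48 to 63 scanner units on the 15 low arrays, of which only 4 were flagged well above background, and 565 to 1412 on the 8 high arrays, while the pool stayed between 105 and 167. The low values are therefore close to the detection limit, and the width of the interval depends on how the background was treated. With an offset of 50 added to both channels it was 1.38, and in the scanner software's own log ratio it was 4.33 log2 units with the same arrays on each side, so neither is a measured fold difference.

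The high arrays were control male replicates 1, 4 and 5, control female replicates 1, 2 and 3, CR male replicate 1 and CR female replicate 6. Control males ran from -1.56 to 1.47 with a median of -0.16 and control females from -1.53 to 1.73 with a median of -0.06. The 5 CR males lay at 1.16, -1.84, -1.54, -0.84 and -1.55, and CR females ran from -1.68 to 1.64 with a median of -1.02. Each group held both low and high pups, and so did 5 of the 6 slides.

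The named genes most like Adamts13 were Cpne3 (r = 0.82), Ddx1 (0.81), Smad2 (-0.79), Clcn7 (-0.79) and Fam98a (-0.79), with ranges of 0.52 to 0.91 log2 units. Within the 8 high and the 15 low arrays, Cpne3 had r of 0.31 and 0.42, and Ddx1 of -0.02 and 0.29. Of 16 kept probes of 12 named genes within 500 kb, 3 had an absolute r of at least 0.5 (6.47% of all kept probes did): Rexo4 (-0.77), Surf1 (0.58) and the glucose transporter gene Slc2a6 (0.57), 57921, 97150 and 10130 bases away. Endothelial markers (3 of 4 kept, at a low mean log2 Cy5 of 6.95) had an r of 0.63 with Adamts13, liver markers of 0.18 and platelet markers of 0.40. Without centring, the r of the endothelial markers was 0.57 over all arrays, 0.36 within the 8 high arrays and 0.25 within the 15 low ones. The part of these marker sets in the Adamts13 levels was not tested.

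**Figure D4:**
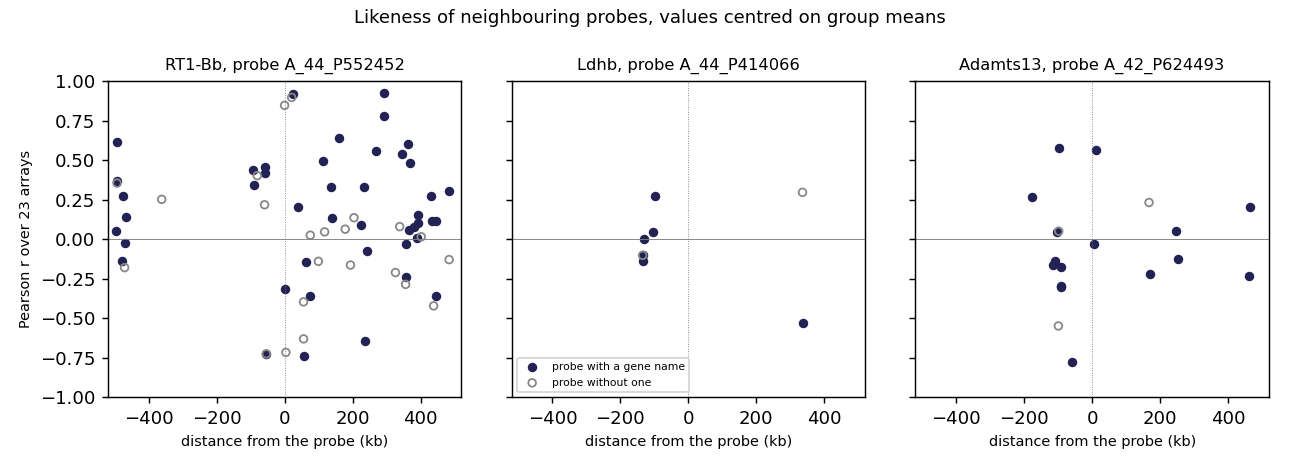
Pearson r over 23 arrays between a split probe and each kept probe within 500 kb, against distance in kb, with values centred on group means. RT1-Bb has neighbours at both extremes, from -0.74 to 0.93, while the named neighbours of Ldhb lie between -0.53 and 0.27.

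The 3 splits fell on different pups. RT1-Bb and Ldhb put 12 of 23 arrays on the same side, RT1-Bb and Adamts13 12, and Ldhb and Adamts13 9. Only control male replicate 6 was low for all 3 genes, and 4 pups were high for all 3: 2 control males, 1 control female and 1 CR female. The most frequent combination, on 7 arrays, was high RT1-Bb, high Ldhb and low Adamts13, and it occurred in all 4 groups.

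**Figure D5:**
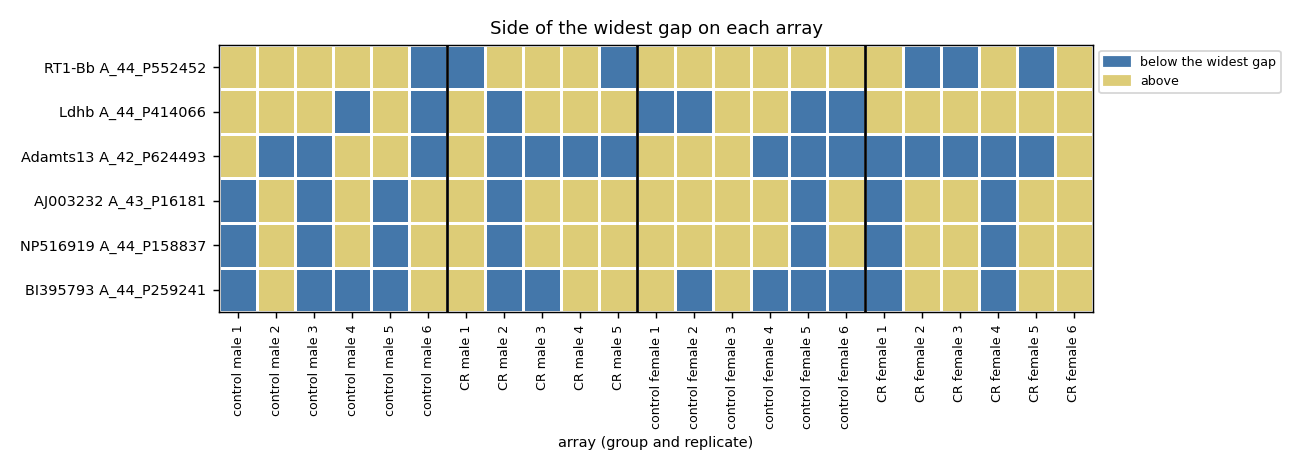
Side of the widest gap (blue below, yellow above) for the split probes of the 3 genes and for 3 other wide-gap probes, 1 column per array. The low arrays of RT1-Bb, Ldhb and Adamts13 differ, whereas AJ003232 and NP516919 have identical rows.

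Set against diet, the split RT1-Bb probe was low in 5 of 11 CR pups and 1 of 12 control pups, while the other probe of that gene did not split. Low Ldhb levels were found in 1 of 11 CR pups and 6 of 12 control pups. High Adamts13 levels were found in 2 of 11 CR and 6 of 12 control pups. The width of a gap takes no account of diet, but the genes were chosen with earlier results of these data known. Width alone did not choose them, since Hcls1, Fabp6 and Reg3b had wider gaps than Adamts13 and were left out. Whether diet had a part in the choice was not tested. An exact two-sided permutation test of the share of arrays above the interval, with diet labels permuted within sex (426888 assignments), gave p = 0.0744 for RT1-Bb, 0.0744 for Ldhb and 0.190 for Adamts13. None of these differences in share passed 0.05. Leaving out 1 array at a time, the exact p for RT1-Bb ran from 0.0404 (without control male replicate 6) to 0.159. It stayed above 0.05 in 22 of 23 cases. For Ldhb the exact p ran from 0.0141 (without CR male replicate 2) to 0.158 and stayed above 0.05 in 20 of 23 cases. Without control female replicate 3 or 4 it was 0.0335.

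Within a sex the counts were smaller still. In females, where 3 of 6 CR pups and 0 of 6 controls were low for RT1-Bb, the exact two-sided test gave p = 0.182, the smallest it can give for 3 low arrays of 12. For Ldhb, where 0 of 6 CR females and 4 of 6 controls were low, the exact test gave p = 0.0606, again the smallest possible with all 12 arrays. Leaving out 1 array at a time, it was 0.0152 without control female replicate 3 or 4 and stayed above 0.05 in 10 of 12 cases. In males the p-values were 0.545 for RT1-Bb, 1 for Ldhb and 0.545 for Adamts13, and 0.545 for Adamts13 in females. With the counts of low arrays seen, the smallest exact p was also 0.0606 in males for RT1-Bb and Ldhb and in females for Adamts13, so within a sex, with all arrays, the test of the share could pass 0.05 only for Adamts13 in males, where it could reach 0.0152.

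Mean levels were compared by the same permutations, for which either sex allows an exact p down to 0.00216. For the mean over the sexes, the difference of the split RT1-Bb probe, CR minus control, was -1.89 ± 0.83 (SE) log2 units, with control pups at 0.27 ± 1.61 (SD, n = 12) and CR pups at -1.61 ± 2.47 (SD, n = 11), and an exact permutation p of 0.0480. The difference of Ldhb was 1.36 ± 0.53 (controls -1.0 ± 1.49, CR 0.38 ± 1.18), with an exact permutation p of 0.0348. That of Adamts13 was -0.75 ± 0.55, with an exact permutation p of 0.204.

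For the unsplit RT1-Bb probe it was -0.30 ± 0.12 (controls 0.21 ± 0.34, CR -0.08 ± 0.30), with an exact permutation p of 0.0313. Both RT1-Bb probes had a lower mean in CR pups, although they did not rank the pups alike. These p-values are unadjusted and belong to a family of 24 exact tests. Leaving out 1 array at a time, the exact p of the split RT1-Bb probe ran from 0.00893 (without control male replicate 6) to 0.107 (without CR male replicate 5) and missed 0.05 in 15 of 23 cases. That of Ldhb ran from 0.00322 (without CR male replicate 2) to 0.0678 (without CR male replicate 1), and missed 0.05 without CR male replicate 1, 4 or 5 or control male replicate 4 or 6. That of A_44_P500803 ran from 0.00935 to 0.0589 and missed it in 7 of 23 cases, with CR female replicate 5 and CR female replicate 1 left out at those ends. CR female replicates 2 and 5, whose low RT1-Bb and Adamts13 values lay nearest the interval, were also left out together after the data were seen. The exact p over both sexes was then 0.136 for the split RT1-Bb probe, 0.00522 for the other and 0.0603 for Ldhb.

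Adjusted over all 23693 kept probes by limma with Benjamini-Hochberg adjustment, no probe of the 3 genes passed 0.05 for diet. For the mean over the sexes the adjusted p was 0.609 for A_44_P500803, 0.645 for A_44_P552452, 0.592 for Ldhb and 0.825 for Adamts13. No probe of any gene was called at an adjusted p of 0.05 in this comparison (0%), where 1759 probes (7.42%) had an unadjusted p under 0.05. At that unadjusted level 3 of the 4 probes were counted, both of RT1-Bb lower and Ldhb higher, against 4.96% of all kept probes lower and 2.46% higher.

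In females the limma differences were -2.05 ± 1.15 for A_44_P552452, -0.29 ± 0.17 for A_44_P500803, 1.93 ± 0.74 for Ldhb and -0.72 ± 0.75 for Adamts13, all at an adjusted p of 0.994. Ldhb was the only one of the 4 with an unadjusted p under 0.05 there (0.0152), as 4.74% of all probes were. The exact permutation test of the mean gave p = 0.0433 for Ldhb in females. It gave 0.0584 without CR female replicate 2 and 0.0857 without CR female replicates 2 and 5. For A_44_P500803 in females the exact p was 0.128. With 1 array left out it ran from 0.0325 (without CR female replicate 5) to 0.245 and stayed above 0.05 in 11 of 12 cases. In males the limma differences were -1.72 ± 1.2, -0.30 ± 0.18, 0.79 ± 0.77 and -0.78 ± 0.79 in the same order, at limma adjusted p of 0.722 to 0.848. The exact p of the split RT1-Bb probe in males was 0.208. With 1 array left out it ran from 0.0397 (without control male replicate 6) to 0.495 and stayed above 0.05 in 10 of 11 cases.

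The difference between the diet effects of the sexes was itself tested with limma, and its adjusted p lay between 0.925 and 0.998 for the 4 probes. For Ldhb, whose counts differed most between the sexes, it was -1.14 ± 1.06 log2 units, males minus females. Between the sexes, averaged over diet, the adjusted p lay between 0.722 and 0.948, in a comparison where 13 probes (0.0549%) were called.

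The diet differences of RT1-Bb and Ldhb were smaller or turned when the mean of the B cell markers entered the limma fit as a covariate. The difference of A_44_P552452 was then -0.23 log2 units for the mean over the sexes and that of Ldhb -0.18, with A_44_P500803 at -0.13 and Adamts13 at -1.16. In males the covariate left A_44_P552452 at 0.14 and Ldhb at -0.95. Marker level and diet differed together in these pups, as the ranges above show.

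Of the genes around RT1-Bb in its pathway, none of a list of 18 class II and antigen-processing genes passed limma's adjusted threshold. Of the 15 kept, RT1-Bb included, 14 had a lower mean in CR pups and 1 a higher one, with a median of -0.27 log2 units against 0.00 over all kept probes, and 10 had an unadjusted p under 0.05, all lower (4.96% of all probes). RT1-Db1, the beta chain of the RT1-D molecule, was at -0.50 ± 0.12 and the invariant chain Cd74 at -0.57 ± 0.16, with limma adjusted p of 0.424 and 0.592. RT1-Ba, the partner chain of RT1-Bb, was at -0.16 ± 0.06 and Ifi30, a thiol reductase of antigen processing, at -0.37 ± 0.09. Class II genes are expressed by B cells, and the mean of the B cell markers lay between -0.06 and 0.79 in control pups and between -0.59 and 0.21 in CR pups; its part in the differences of the other genes of this list was not tested. With each gene read by its kept probe of highest mean intensity only, the widest gap of any other gene of the list was 0.42 log2 units, that of RT1-DOb. Further probes of these genes were not counted here. The class II probes without a gene symbol, AJ003232 and NP516919, with intervals of 2.19 and 1.89 log2 units, were outside the list.

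The list of lactate and pyruvate genes held 20, of which 16 were kept. Of these, 8 were higher and 8 lower in CR pups for the mean over the sexes, with a median of -0.01. Ldhb was the only one of the 16 with an unadjusted limma p under 0.05, a level reached by 7.42% of all kept probes. Ldha, the partner subunit, was at -0.15 ± 0.08 and showed no split, with a widest gap of 0.07 log2 units. The lactate transporters Slc16a1 (-0.06 ± 0.06) and Slc16a3 (-0.07 ± 0.17) lay near 0.

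Of 29 genes of the von Willebrand factor and ADAMTS list, 12 were kept, 5 higher and 7 lower in CR pups, with a median of -0.01. None of the 12 had an unadjusted limma p under 0.05, a level reached by 7.42% of all kept probes. Vwf, the substrate of Adamts13, was at -0.04 ± 0.20 with a widest gap of 0.63 log2 units. Of the other ADAMTS proteases that were kept, Adamts2, Adamts3, Adamts7 and Adamts15, the differences lay between -0.02 and 0.04 and the widest gaps between 0.05 and 0.18.

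Few probes split the arrays this widely, and how few depended on the normalization. Of the 23693 kept probes, 22 (0.0929%) had an empty interval of at least 1 log2 unit with at least 3 arrays on each side, and 85 (0.359%) one of at least 0.5. In the scanner software's log ratio 99 probes had an interval of at least 1 log2 unit. RT1-Bb, Ldhb and Adamts13 had ranks 2, 3 and 14 among the 22. The first, DV718702, lies on the X chromosome and split the arrays 11 to 12.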

How the data were processed

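RNA of blood mononuclear cells was read on 23 dual-colour arrays of Agilent rat design 014879. The deposited scanner files hold an intensity per spot and channel from Agilent Feature Extraction 10.5.1.1, per the file headers and the submitters' processing notes, and also a log10 ratio after that software's own dye normalization, per the same headers. Of the authors' processing, a deposited table of log2 levels tracks Cy5 of the same array (r of 0.989 to 0.997 across spots), its scale and centring are not given in the sources used here beyond a shared column median of 7.23, and it served as an alternative. The other columns used, flags of spots, were set by the scanner software, per the file headers.

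Here the mean intensities were corrected by normexp with an offset of 50 and normalized by loess within each array, control spots were left out of the fit by weight, spots marked as outliers were dropped, and spots of 1 probe were averaged. Group means of the 4 groups were fitted to all 23693 kept probes with limma 3.58.1 in R 4.3.3, with p-values adjusted by Benjamini-Hochberg over all of them, and the fit was tested on simulated data. Exact two-sided permutation tests permuted diet within sex. Likeness is Pearson's r over 23 arrays of values centred on group means unless stated, and r within 1 side of an interval was taken without centring. Named are the 5 most alike genes per probe, the neighbours within 500 kb with the largest r, and others where stated. Gene names came from RefSeq (GRCr8) through the probes' accessions, and positions are those of the design on rn4. Each gene of a list or marker set was read by its kept probe of highest mean intensity. Members, lists and tests were chosen with earlier results of these data known. The number of arrays limits the precision, and there was no dye swap, so a dye effect on a probe is shared by all arrays. The markers that make up the B cell mean are not reported here one by one.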

Additional observations from a re-analysis of the deposited data

Results flagged for a closer look

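In groups of 4 to 10 arrays, an array stood apart where its distance to the nearest other array took more of the group's range than Dixon's limit allows. Chance marks about 1 in 20 groups drawn from a single normal spread, and 16 groups of a probe were examined. The genes were chosen for a wide gap, so that rate does not hold for their split probes, and the marks are a description only. RT1-Bb probe A_44_P552452 had control male replicate 6 at -4.48, below the 5 other control males, and control female replicate 5 at 1.93, above the 5 other control females. Ldhb had CR female replicate 2 at 1.30, above the 5 other CR females, and CR male replicate 2 at -2.90, below the 4 other CR males. Of these 4, the CR male and the control male are members of the low sets described above.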

How the results depend on the processing

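The arrays on each side of the widest interval were the same for the 3 split probes under every normalization tried. The interval of Adamts13 was 4.33 in the scanner software's log ratio, under which 99 probes had a gap of at least 1 log2 unit, against 22 after normexp and loess, where a minimum of 0.5 gave 85. For A_44_P500803 the widest gap was 0.59 under median centring with 1 array below, and 2 arrays were below in Cy5 alone. Counts of called probes moved to 1 in males with the replicate block, to 2 for the mean over the sexes with array weights and, males minus females, to 8 under median centring. Leaving out 1 array gave 0 to 4 calls in males and 0 to 4 for the mean, the 4 without CR male replicate 2.

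The B cell covariate reversed A_44_P552452 in males (0.14) and between sexes (0.39), Ldhb in males (-0.95), the mean (-0.18) and between sexes (-0.50), and the A_44_P500803 difference of diet effects (0.034). The latter was 0.035 with the replicate block too. Same-numbered arrays of different groups had a mean r of 0.07 against -0.01 for others, with r over 0.1 in 16 of 33 and 44 of 165 pairs. Whether same-numbered pups shared a litter cannot be told from the labels or from these values. The difference of diet effects of A_44_P552452 was -0.084 under median centring, and its sex difference 0.32 with array weights. That of Adamts13 was 0.36 in the scanner ratio, 0.019 with offset 0, 0.18 in Cy5 alone, 0.039 in the deposited value table and 0.078 with slides as a block. None of these passed its test, and the cause was not tested.

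In the exact permutation test of the mean, A_44_P500803 in males reached p = 0.0238 under median centring (-0.78) and missed 0.05 over both sexes in the value table (-0.28, p = 0.0526). The exact test of Ldhb missed it under median centring (1.17, p = 0.0687).

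With 1 array left out, or CR female replicates 2 and 5 together, the difference of diet effects ran from -0.12 to 0.19 for A_44_P500803, from -0.64 to 1.04 for A_44_P552452 and from -0.58 to 0.40 for Adamts13. The sex difference ran from -0.82 to 0.11 for A_44_P552452 and from -0.47 to 0.018 for Adamts13. The means in the exact tests kept their sign: -2.62 to -1.01 in males and -2.33 to -1.41 over both sexes for A_44_P552452, -0.49 to -0.19 in females and -0.40 to -0.25 over both for A_44_P500803, and 1.71 to 2.38 in females and 1.16 to 1.75 over both for Ldhb. Differences in share above the interval, in percentage points, ran from -45.0 to -24.2 for A_44_P552452 over both sexes and for Ldhb from 60.0 to 80.0 in females and 33.3 to 50 over both.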

Other observations

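A probe on the mitochondrial genome, BI395793 (A_44_P259241, position 6933 to 6992 of chromosome M on rn4), was picked out after its values were seen. Its log2 ratio left 1.59 log2 units empty, with 12 arrays below and 11 above. No array was below the interval both for it and for RT1-Bb probe A_44_P552452, and all 7 arrays low for AJ003232 were low for it. Against Ldhb it put 14 of 23 arrays on the same side and against Adamts13 12. By group, 4 of 6 control males, 2 of 5 CR males, 4 of 6 control females and 2 of 6 CR females were low.

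Probes of RT1-Db1, a class II beta chain gene near RT1-Bb, also disagreed with each other. A_44_P139882 had an r of -0.73 with RT1-Bb probe A_44_P552452, while A_44_P130513 and A_44_P130516 had 0.42 and 0.46, and with the unsplit RT1-Bb probe A_44_P500803 the 3 had r of 0.64, 0.59 and 0.59 in that order.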
